A study of Mus musculus with 3 samples.

Results

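The regions described here are the 975 exon and 3′ UTR regions with reads in an Ets-1 ChIP-seq comparison of Min6 cells. They were chosen from the deposited comparison table by 2 conditions: an annotation as an exon or a 3′ UTR on chromosomes 1 to 19 or X, and 5 or more reads in at least 1 of the 2 precipitated libraries. They make up 4.62% of the 21083 exon and 3′ UTR regions in that table, which lists 543367 regions in all. By annotation 622 are exon regions and 353 are 3′ UTR regions. Because read counts chose the members, the counts and the ratios between the precipitated libraries are given as a description.

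Min6 is a mouse insulinoma line that secretes insulin. The Ad-Ets-1 library came from cells infected for 24 h with Ad-Ets-1, an adenovirus that overexpresses Ets-1, and the Ad-GFP library from cells infected for 24 h with Ad-GFP, the control adenovirus named for green fluorescent protein; both were precipitated with the same Ets1 antibody. The input library is Min6 chromatin without precipitation. All cells grew in 25 mM glucose and were fixed for 10 min in 1% formaldehyde. Which virus, if any, the input cells received and from which species the Ets-1 insert came is not given in the sources used here. Each group held 1 library, so differences below were not checked in replicates and have no p-value. Totals recovered from the deposited values are 1938473 reads for the Ad-Ets-1 library, 1775757 for the Ad-GFP library and 3937471 for the input. A ratio compares reads after division by the library total. The 95% exact binomial interval given with a ratio covers counting error only and treats 2 reads as 1 fragment, rounded up, in every library. Even counts, as when both mates of a pair are counted, were in excess in the precipitated libraries but not in the input, so intervals against the input are approximate where the input holds few reads. Chromatin reads do not measure expression, so β-cell identity could not be checked with marker genes.

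Ets-1 is a founding member of the ETS family of transcription factors, which bind DNA at a GGAA core, most often in promoters and enhancers. Exons and 3′ UTRs are transcribed sequence, and in ChIP-seq they are covered by fragments from binding sites nearby and by the same background as the rest of the genome. The input library shows the part of that background that arises without an antibody, since its chromatin was sequenced without one. No control antibody library was among those used here, so background from the precipitation itself was not measured.

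The ETS recognition words CCGGAAGT and CAGGAAGT, searched on both strands, occurred in 41 of the 975 members. Members with many precipitated reads that hold CAGGAAGT are shown first, then the 3 members with CCGGAAGT. Each line gives 30 bases of the mouse reference genome GRCm38 (mm10), 5′ to 3′ on the strand that reads as the word, with the word in capitals.
Atm (chr9:53451525-53451554, plus strand): tataccagaaaCAGGAAGTcttaccttcac
Ets1 (chr9:32752785-32752814, plus strand): ccttgtgcttcCAGGAAGTgggccgatcca
Nfe2l1 (chr11:96819663-96819692, plus strand): atctgcttgtcCAGGAAGTcagcctgcttt
Matn1 (chr4:130949849-130949878, minus strand): tgagagagaagCCGGAAGTctaagaggcac
Pcdh17 (chr14:84533600-84533629, minus strand): gtgggttttcaCCGGAAGTgatcattttca
Gm13219 (chr2:9434480-9434509, minus strand): tatctttgaacCCGGAAGTtcttcatttga

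These windows differ in where the word lies. In Atm, Matn1 and Gm13219 the word lay in the intron next to the annotated exon, in Nfe2l1 in coding sequence and in Pcdh17 in the 3′ UTR. In Ets1 it began 3 bases before exon 7 and ran into it. The reads of the whole regions that hold these words differed as widely. The Atm region held 369 reads with Ad-Ets-1 and 440 with Ad-GFP. The Ets1 region held 4 with Ad-Ets-1 and 12 with Ad-GFP, and the Matn1 region 6 with Ad-Ets-1 and 1 with Ad-GFP.

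The share of members with a word was 4.21% (95% exact Clopper-Pearson interval 3.03 to 5.66). Among regions that passed the same read minimum it was 5.30% at promoters, 3.45% in the first intron, 3.10% in later introns and 2.95% in distal regions. Exon and 3′ UTR regions under 5 reads held a word in 2.36%, but they were narrower, with a median of 249 bp against 490 bp for the members. Per 100 kb of sequence the members held 8.23 regions with a word and the regions under 5 reads 8.56, while promoters held 11.2. The reversed words TGAAGGCC and TGAAGGAC, made of the same letters, occurred in 49 members, 5.03%, more often than the ETS words. Past the same minimum the reversed words occurred in 3.03% of promoter, 3.19% of first intron, 2.99% of later intron and 3.17% of distal regions. The members thus held both kinds of word more often than intron and distal regions did. CCGGAAGT alone occurred in 0.308% of members and in 2.65% of promoter regions. Of the 42 word matches outside chromosome 18, 17 lay in introns, 17 in untranslated or non-coding exon sequence, 7 in coding exons and 1 at an exon edge. A match is a description of sequence and was not tested as a binding site.

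Ets1 itself carried the most members of any gene, 4 of its 5 listed exon and 3′ UTR regions, and both precipitated libraries held reads there. The gene lies on the plus strand of chromosome 9 from 32636221 to 32757820. The region at exon 5 of 8 (chromosome 9, 32733941 to 32734330) held 22 reads with Ad-Ets-1, 14 with Ad-GFP and 8 in the input. The ratio of Ad-Ets-1 to Ad-GFP was 1.44 (0.510 to 4.38), and the region stood at 5.59 times the input with Ad-Ets-1 (1.66 to 24.1) and 3.88 times with Ad-GFP (0.986 to 18.1). The signal at this exon was thus higher with Ad-Ets-1 by less than the counting error.

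The other Ets1 members lay toward the end of the gene and did not all lean the same way. The exon 6 region (chromosome 9, 32738099 to 32738347) held 9 reads with Ad-Ets-1, 4 with Ad-GFP and 4 in the input, a ratio of 2.06 between the viruses (0.375 to 24.0). The exon 7 region (chromosome 9, 32752221 to 32753045) held 4 reads with Ad-Ets-1, 12 with Ad-GFP and 0 in the input, a ratio of 0.305 (0.0301 to 1.71). The region over the end of the coding sequence and the 3′ UTR (chromosome 9, 32754166 to 32754460) held 8 reads with Ad-Ets-1, 2 with Ad-GFP and 0 in the input, a ratio of 3.66 (0.363 to 180.5). All of these intervals contain 1. The remaining 3′ UTR region, under the minimum, held 2 reads with Ad-Ets-1, 2 with Ad-GFP and 0 in the input.

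Summed over its 5 exon and 3′ UTR regions, Ets1 held 45 reads with Ad-Ets-1, 34 with Ad-GFP and 12 in the input. The 27 other listed regions in the gene held at most 8 reads with Ad-Ets-1, 2 with Ad-GFP and 0 in the input, and 1 of them reached 5. No region was listed at exons 1 to 4 of the transcript that the annotation uses. The exon 5 region started 1 bp from the annotated exon start and the exon 6 region started at it. Their other ends lay 142 bp and 12 bp from the nearest annotated splice site. The exon 7 region started 578 bp and ended 128 bp from one, with 14.4% of its bases in exons. The region over the end of the coding sequence started 47 bp from one. A region edge within 2 bp of an annotated splice site was rare among members, 6 of 975 (0.615%), against 275 of 20108 exon and 3′ UTR regions under 5 reads (1.37%); the other members with such an edge were in Atad5, Cpd, Gm6185 and Tvp23a. Reads from the virus insert and reads from the chromosomal gene cannot be told apart in these files.

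**Figure D1:**
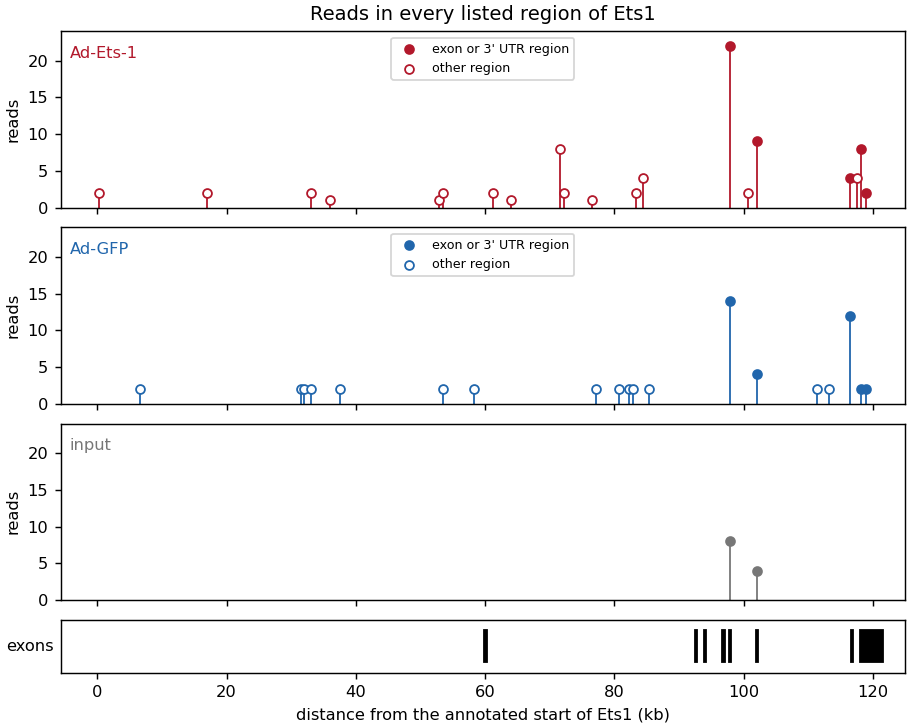
Reads per listed region (vertical axis) against distance from the annotated start of Ets1 in kb (horizontal axis), for the Ad-Ets-1, Ad-GFP and input libraries from top to bottom, with the exons of the annotated transcript as black bars; filled points are exon and 3′ UTR regions and open points are other listed regions. The highest point in each precipitated library is the exon 5 region, with 22 reads with Ad-Ets-1 and 14 with Ad-GFP, and the input reads lie at exons 5 and 6 only.

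Among all members, 18 held 20 or more reads in at least 1 precipitated library, and these carried most of the reads. They held 68.4% of the members' Ad-Ets-1 reads, 67.3% of their Ad-GFP reads and 88.8% of their input reads. All 18 had input reads, 2 or more each, and 15 of them covered coding sequence. The interval of the ratio between the viruses lay above 1 in 1 of them, below 1 in 8 and held 1 in 9. Of all 22383 regions of the table with 5 or more reads, 0.925% had an interval above 1 and 1.72% an interval below 1. These shares use a lower read minimum than the 18 members, and intervals are wider at fewer reads. The 2 are therefore not alike, and no share was computed for all regions with 20 or more reads.

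The strongest members were high in all 3 libraries. An exon 3 region of the predicted gene Gm11168 (chromosome 9, 3006363 to 3007670) held 5159 reads with Ad-Ets-1, 4661 with Ad-GFP and 1169 in the input, a ratio of 1.01 between the viruses (0.958 to 1.07). It and the exon 3 region of Gm10801 (chromosome 2, 98663713 to 98664078), with 315 reads with Ad-Ets-1, 242 with Ad-GFP and 46 in the input, share 24-base words with the most-read region of the table, a satellite repeat. The 3′ UTR region of Brsk2, a brain-enriched kinase of the AMPK-related family (chromosome 7, 141987646 to 141988095), held 686 reads with Ad-Ets-1, 670 with Ad-GFP and 421 in the input. Its ratio was 0.938 (0.804 to 1.09), and it stood at 3.31 times the input with Ad-Ets-1 and 3.53 times with Ad-GFP. All 3 genes held other strong regions, given here by their maximum in each library separately. It reached 1360 reads with Ad-Ets-1 and 1172 with Ad-GFP in Gm11168. In Gm10801 it was 12515 with Ad-Ets-1 and 10421 with Ad-GFP, and in Brsk2 626 with Ad-Ets-1 and 518 with Ad-GFP.

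Atm, which encodes the kinase that signals DNA double-strand breaks, had a region at exon 54 of 62 (chromosome 9, 53451328 to 53451886) with 369 reads with Ad-Ets-1, 440 with Ad-GFP and 124 in the input. The ratio was 0.768 (0.630 to 0.941). The other 14 listed regions of Atm held at most 4 reads with Ad-Ets-1, 4 with Ad-GFP and 2 in the input, so the signal was confined to this region among those listed. The 3′ UTR region of Lars2, the mitochondrial leucyl-tRNA synthetase (chromosome 9, 123461850 to 123462212), held 146 reads with Ad-Ets-1, 236 with Ad-GFP and 78 in the input, a ratio of 0.567 (0.417 to 0.765). Its 32-base words had a median of 2 copies in the genome, and the other 18 listed regions of the gene held at most 4 reads with Ad-Ets-1, 4 with Ad-GFP and 0 in the input.

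Prnp, the prion protein gene, and Sf3b1, a subunit of the splicing machinery, also had high input. The Prnp 3′ UTR region (chromosome 2, 131936770 to 131937282), of which 422 bases are coding, held 118 reads with Ad-Ets-1, 70 with Ad-GFP and 61 in the input, a ratio of 1.54 (1.00 to 2.42) whose lower bound lies just under 1. The Sf3b1 exon 14 region held 43 reads with Ad-Ets-1, 70 with Ad-GFP and 26 in the input, a ratio of 0.563 (0.322 to 1.01). Exon 1 of Bscl2, the seipin gene of lipid droplet formation, held 24 reads with Ad-Ets-1, 17 with Ad-GFP and 14 in the input, and exon 3 of Tet2, a methylcytosine dioxygenase, held 18 with Ad-Ets-1, 15 with Ad-GFP and 5 in the input. For Sf3b1, Bscl2 and Tet2 no difference between the viruses was detectable at this depth.

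**Figure D2:**
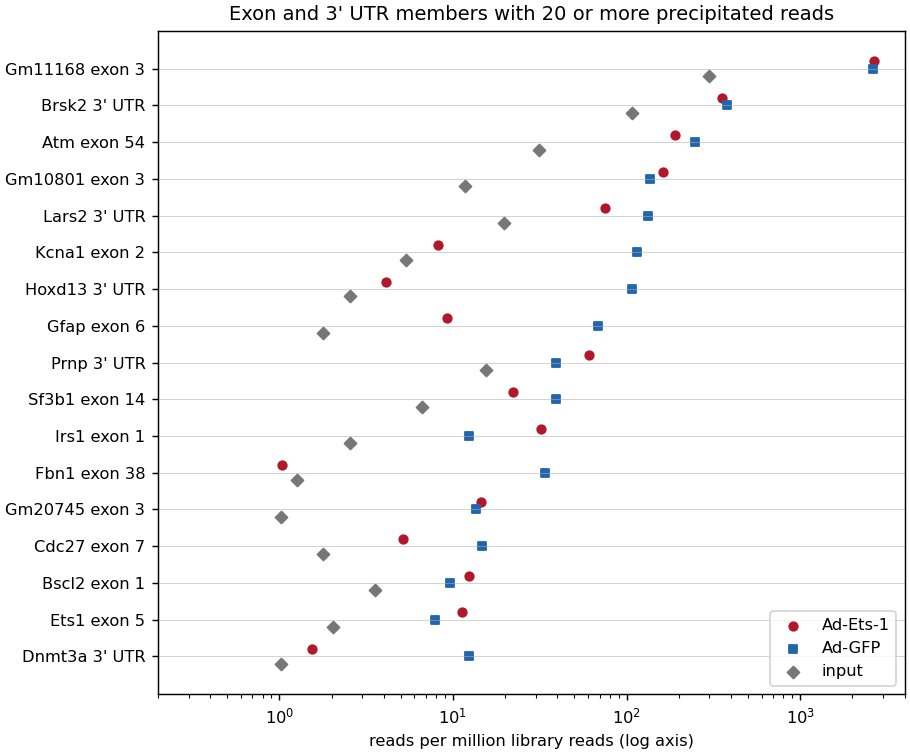
Reads scaled to library totals (RPM, horizontal log axis) in 17 of the 18 members with 20 or more precipitated reads, for Ad-Ets-1 (circles), Ad-GFP (squares) and the input (diamonds). The diamond lies left of the square for every member shown, and the circle lies far left of the square for Kcna1, Hoxd13, Gfap, Fbn1 and Dnmt3a.

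In 6 of the 18 the reads were far lower with Ad-Ets-1 than with Ad-GFP, at a ratio of 0.135 or below, and 5 of these are described here. No such share was computed for all regions with 20 or more reads. The count therefore describes these members and is not a trait of exon and 3′ UTR regions. Exon 2 of Kcna1, a voltage-gated potassium channel (chromosome 6, 126642217 to 126642661), held 16 reads with Ad-Ets-1, 204 with Ad-GFP and 21 in the input, a ratio of 0.0718 (0.0302 to 0.147). The Hoxd13 3′ UTR region, in a homeobox gene of limb patterning (chromosome 2, 74669785 to 74670254), held 8 reads with Ad-Ets-1, 192 with Ad-GFP and 10 in the input; its ratio was 0.0382 (0.0102 to 0.101). Exon 6 of Gfap, an intermediate filament gene of astrocytes (chromosome 11, 102892870 to 102893266), held 18 reads with Ad-Ets-1, 122 with Ad-GFP and 7 in the input, a ratio of 0.135 (0.0590 to 0.274). For Kcna1 and Hoxd13 only the Ad-GFP interval lay above the input: Kcna1 was at 1.55 times the input with Ad-Ets-1 (0.516 to 4.03) and 21.5 times with Ad-GFP (11 to 42.5), and Hoxd13 was at 1.62 times with Ad-Ets-1 (0.322 to 7.55) and 42.6 times with Ad-GFP (17.6 to 134). Gfap stood above the input in both, at 5.22 times with Ad-Ets-1 (1.28 to 20.3) and 38.6 times with Ad-GFP (12.6 to 128).

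Fbn1 and Dnmt3a had almost no Ad-Ets-1 reads. Exon 38 of Fbn1, which encodes the microfibril protein fibrillin (chromosome 2, 125345750 to 125346117), held 2 reads with Ad-Ets-1, 60 with Ad-GFP and 5 in the input, a ratio of 0.0305 (0.000748 to 0.184). A 3′ UTR region of Dnmt3a, a DNA methyltransferase (chromosome 12, 3902689 to 3902948), held 3 reads with Ad-Ets-1, 22 with Ad-GFP and 4 in the input, a ratio of 0.125 (0.0179 to 0.763).

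The surroundings of these exons differed from gene to gene. The 44 other listed regions of Fbn1 held at most 6 reads in each precipitated library, and the 1 other region of Gfap held 0 reads with Ad-Ets-1 and 2 with Ad-GFP. Kcna1 had no other listed region. Hoxd13 and Dnmt3a differed from these: the other Hoxd13 region held 4 reads with Ad-Ets-1, 182 with Ad-GFP and 17 in the input, and the 11 other Dnmt3a regions held up to 22 reads with Ad-Ets-1, 47 with Ad-GFP and 18 in the input. In the authors' deposited Ad-GFP peak list, whose values belong to each peak, Gfap had a fold over local background of 15.9 and a −log10 q of 25.0, and Hoxd13 a fold of 15.7 and a −log10 q of 36.2. Fbn1, with 60 reads, had a deposited fold of 4.98 and a −log10 q of 2.19. None of these 5 regions was overlapped by a peak of the Ad-Ets-1 list.

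A single leading member was higher with Ad-Ets-1 beyond counting error. Exon 1 of Irs1, which encodes an insulin receptor substrate (chromosome 1, 82288333 to 82288954), held 62 reads with Ad-Ets-1, 22 with Ad-GFP and 10 in the input. The ratio was 2.58 (1.26 to 5.69), and the region, wholly coding, stood at 12.6 times the input with Ad-Ets-1 (4.85 to 41.5) and 4.88 times with Ad-GFP (1.56 to 17.9). The 10 other listed regions of Irs1 held at most 64 reads with Ad-Ets-1, 57 with Ad-GFP and 18 in the input, and 2 of them reached 5. These maxima were taken in each library separately and need not belong to the same region.

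Below 20 reads, 5 members had an interval above 1, in genes of unrelated functions. A 3′ UTR region of Slco1c1, a thyroid hormone transporter (chromosome 6, 141564437 to 141564821), held 18 reads with Ad-Ets-1, 1 with Ad-GFP and 0 in the input, a ratio of 16.5 (1.14 to 361.4), or 5.50 against the floor of 3 reads. Exon 21 of Brca1, a DNA repair gene (chromosome 11, 101492078 to 101492371), held 13 reads with Ad-Ets-1 and 0 in each of the Ad-GFP and input libraries. Its ratio against the floor of 3 reads was 3.97, and its interval began at 1.32. Exon 5 of the glutamate receptor gene Grik1 held 12 reads with Ad-Ets-1 and 0 in the other 2 libraries. A 3′ UTR region of Sash1 held 12 with Ad-Ets-1, 0 with Ad-GFP and 1 in the input. Both had a ratio of 3.66 against the floor, with intervals that began at 1.08. Exon 10 of the cyclin gene Ccnb3 held 11 reads with Ad-Ets-1 and 0 in the other 2 libraries. Its ratio against the floor was 3.36, and its interval also began at 1.08. With Irs1 these are the 6 members whose interval lay above 1, 0.615% of 975, against the 0.925% of all regions with 5 or more reads given above. Exon 4 of Nfe2l1, a transcription factor of proteasome genes, held 11 reads with Ad-Ets-1, 2 with Ad-GFP and 2 in the input, a ratio of 5.04 with an interval of 0.667 to 252.8 that spans 1.

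In the other direction 24 members, 2.46%, had an interval below 1, against 1.72% of all regions with 5 or more reads. Of these, 16 held under 20 reads, and all 16 had 0 reads with Ad-Ets-1. Examples are the nuclear import receptor gene Tnpo1 with 12 Ad-GFP reads, the neural transcription factor gene Sim1 with 11 and the mitochondrial ribosomal protein gene Mrpl15 with 10, each with 0 in the input. Mrpl15 lay at the edge, with an upper bound of 0.9997, as did all of the 16 with 9 or 10 Ad-GFP reads. Those of the 16 with 11 or 12 Ad-GFP reads had an upper bound of 0.778. The mirror case of Mrpl15 is Mrpl20, with 10 reads with Ad-Ets-1 and 0 with Ad-GFP. It had a lower bound of 0.839, so its interval held 1. After scaling to library totals, 10 reads against 0 thus counted only where the reads were Ad-GFP reads. Other members low with Ad-Ets-1 were within counting error, such as Tvp23a, which held 2 reads with Ad-Ets-1, 12 with Ad-GFP and 6 in the input, a ratio of 0.153 (0.00332 to 1.26).

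**Figure D3:**
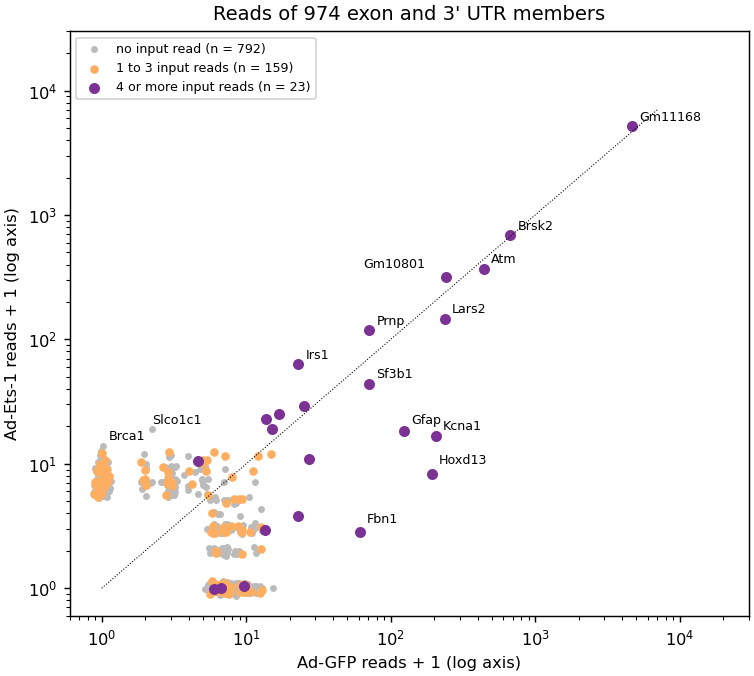
Ad-Ets-1 reads plus 1 (vertical log axis) against Ad-GFP reads plus 1 (horizontal log axis) for 974 of the 975 members, coloured by input reads; counts under 20 are spread slightly at random so that points do not hide each other, and the dotted line marks equal reads. Most points form bands beside the axes at 0 to 3 reads in 1 library, and every point shown with 20 or more reads has 4 or more input reads.

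Most members rested on few reads. The higher precipitated library held 5 or 6 reads in 714 of the 975 members, 73.2%, and the medians over members were 4 reads with Ad-Ets-1, 5 with Ad-GFP and 0 in the input. Only 25 members held 5 or more reads in both precipitated libraries, while 448 did so with Ad-Ets-1 alone and 502 with Ad-GFP alone. Of the 473 members with 5 or more Ad-Ets-1 reads, 335 (70.8%) had 0 Ad-GFP reads, and of the 527 with 5 or more Ad-GFP reads, 366 (69.4%) had 0 Ad-Ets-1 reads. Just inside the minimum lay an exon of Klra17 with 0 reads with Ad-Ets-1, 5 with Ad-GFP and 4 in the input and one of Ttbk1 with 5 reads with Ad-Ets-1, 0 with Ad-GFP and 2 in the input, and just outside lay exons of Gm36146 and Palld, each with 0 reads with Ad-Ets-1, 4 with Ad-GFP and 3 in the input. At the boundary 224 members held 5 reads and 2547 further regions held 4.

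Counted by fold with a floor of 3 reads, 117 members (12%) were at least 2-fold higher with Ad-Ets-1, against 12.3% of all regions with 5 or more reads and 0.506% of all regions. At least 2-fold lower with Ad-Ets-1 were 376 members (38.6%), against 36.4% of all regions with 5 or more reads and 1.5% of all regions. The gap between 117 and 376 came from a common count: 6 Ad-Ets-1 reads against the floor give a ratio of 1.83, under the threshold, and the floor against 6 Ad-GFP reads gives 0.458, past it. Members at 6 reads against 3 or fewer numbered 220 with the 6 reads in the Ad-Ets-1 library and 257 with them in the Ad-GFP library. With 7 or more reads, a minimum chosen after seeing the data, 117 were higher and 119 lower, and without scaling to library totals 343 and 376. By the sign of the scaled difference, 459 members (47.1%, 43.9 to 50.3) had more reads with Ad-Ets-1, against 39.6% of all regions, 49.3% of all with 5 or more reads, 59.2% of promoter regions, 45.7% in the first intron, 48.9% in later introns and 48.2% of distal regions. The members' shares thus lay near those of all regions with 5 or more reads, and the comparison used the counts that chose them.

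The same counts set against the input gave 487 members (49.9%) at least 2-fold above it with Ad-Ets-1 and 546 (56.0%) with Ad-GFP, against 52.4% with Ad-Ets-1 and 53.4% with Ad-GFP of all regions with 5 or more reads and 6.87% with Ad-Ets-1 and 8.24% with Ad-GFP of all regions. Against the floor of 3 input reads, 4 Ad-Ets-1 reads already gave a ratio of 2.71 and 4 Ad-GFP reads 2.96. Only 23 members held 4 or more input reads. The read minimum and the floor thus fixed most of these counts in advance. They nearly repeat the 473 members with 5 or more Ad-Ets-1 reads and the 527 with 5 or more Ad-GFP reads, and do not show enrichment. In the deposited peak lists, 539 members (55.3%) were overlapped by an Ad-Ets-1 peak, against 56.4% of all regions with 5 or more reads. An Ad-GFP peak overlapped 600 members (61.5%), against 60.5%, and 164 (16.8%) had both, against 16.9%. With a deposited q of 0.05 or less required, the members numbered 130 (13.3%) for Ad-Ets-1, against 13.6% of all such regions, 113 (11.6%) for Ad-GFP, against 11.7%, and 8 (0.821%) for both, against 0.402%.

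The input, which the rule did not use, held more reads where the precipitated libraries did. Among members, 183 (18.8%, 16.4 to 21.4) had 1 or more input reads, against 6.42% of exon and 3′ UTR regions under 5 reads, 6.37% of all regions and 18.7% of all with 5 or more. The share was 5.65% at 1 to 2 precipitated reads, 10.1% at 3 to 4, 14.3% at 5, 14.5% at 6 to 7, 26.7% at 8 to 9, 32.2% at 10 to 19 and 100% (81.5 to 100) in the 18 members with 20 or more. This share was close to that of all regions past the minimum, while 4 or more input reads were found in 23 members (2.36%, 1.5 to 3.52), against 1.28% of all regions with 5 or more reads and 0.0544% of all regions. Of the 23, 5 held 12 or fewer reads in both precipitated libraries, such as an exon of Gmpr2 with 0 reads with Ad-Ets-1, 6 with Ad-GFP and 5 in the input. Regions were wider at higher read numbers, with a median of 238 bp at 1 to 2 reads and 589 bp at 8 to 9, and the part of width in these shares was not tested.

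**Figure D4:**
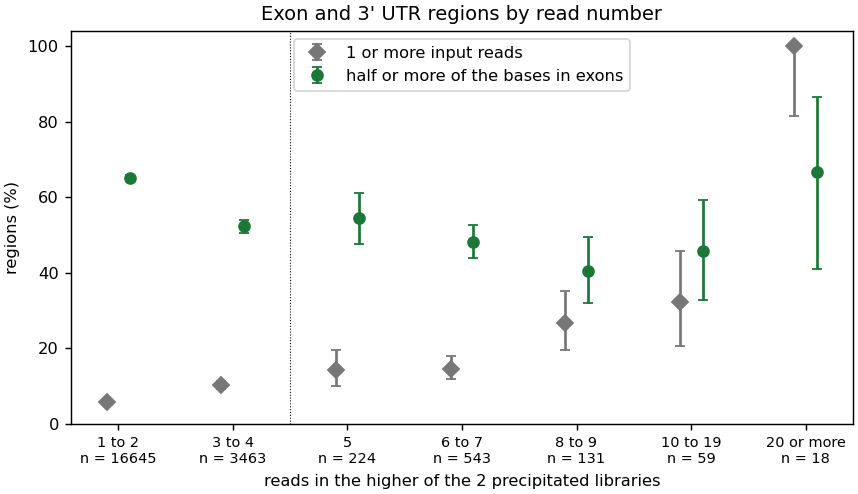
Percent of exon and 3′ UTR regions (vertical axis) with 1 or more input reads (diamonds) and with 50% or more of their bases in annotated exons (circles), by reads in the higher precipitated library (horizontal axis, with n); bars are 95% exact Clopper-Pearson intervals and the dotted line is the minimum of 5 reads. The input share goes up from 5.65% to 100% across the bands, while the exon share lies between 40.5% and 66.7%.

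The annotation class described part of most members. Every member held at least 1 base of an annotated exon, but 476 (48.8%, 45.6 to 52.0) had 50% or more of their bases in exons, and 337 lay in exons entirely. Of the 622 exon members, 224 (36.0%) reached 50%, and their median exon share was 31.5%. The 353 3′ UTR members were more often exonic, 252 of them (71.4%), with a median of 100%. Yet 116 of these held coding bases, as at Prnp and Brsk2, and 72 held at least as many coding as 3′ UTR bases, 49 of them equally many, where a base that is coding in 1 transcript and 3′ UTR in another counts as both; 180 lay wholly in 3′ UTR. Regions under 5 reads were narrower and more exonic, with 62.9% reaching 50% and a median exon share of 79.7%.

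Among exon members 400 lay at inner exons, 216 at the last exon and 55 at exon 1, with 49 in transcripts of 1 exon counted in both of the last 2 classes. Members were a median of 490 bp wide (238 to 1592) with a median GC content of 41.8% and 17.7% of bases in annotated repeats, against 35.6% for distal regions past the same minimum. They lay a median of 6364 bp from the nearest annotated start, and 5 were within 1 kb. The annotation labels regions close to a start as promoter, so few such regions could be members by the rule. The genome held 1 copy of the median 32-base word in 940 members and more than 2 copies in 20.

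The members fell in 930 genes, of which 822 members were in protein-coding genes and 63 in long intergenic non-coding RNA genes. Besides Ets1, genes with 3 members included Onecut2, Fbn2, Arih1 and Rock2. All 3 regions of Fbn2, a second fibrillin gene, had more reads with Ad-Ets-1, while those of Onecut2, Arih1 and Rock2 were mixed. The Fbn2 regions held 10, 9 and 6 reads with Ad-Ets-1, 0, 4 and 0 with Ad-GFP and 0, 2 and 0 in the input. In Rock2, a kinase of the actin cytoskeleton, the regions held 0, 0 and 6 reads with Ad-Ets-1 and 5, 8 and 0 with Ad-GFP. In Onecut2, a cut homeobox factor, the 3′ UTR regions held 0, 5 and 0 reads with Ad-Ets-1, 9, 0 and 6 with Ad-GFP and 0, 0 and 1 in the input. In Arih1, an E3 ubiquitin ligase, they held 0, 6 and 8 reads with Ad-Ets-1 and 6, 3 and 0 with Ad-GFP. For 305 members the gene that holds the exon was not the nearest gene of the deposited table, Ets1 among them.

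Genes of the β cell were among the members in small numbers. Of the β-cell identity list, 10 genes had any listed exon or 3′ UTR region and 2 had a member; these are 2 of 12 regions (16.7%), against 4.62% of all exon and 3′ UTR regions. Isl1, a LIM homeobox factor, held 0 reads with Ad-Ets-1, 5 with Ad-GFP and 0 in the input, and Iapp, islet amyloid polypeptide, held 0 with Ad-Ets-1, 5 with Ad-GFP and 1 in the input. Of 13 glucose sensing genes 1 had a member (3.23% of regions): Mlxipl, a glucose-responsive transcription factor, held 10 reads with Ad-Ets-1, 4 with Ad-GFP and 2 in the input, a ratio of 2.29 (0.375 to 24.0). Of 13 granule genes 2 did (9.52% of regions), both with more Ad-GFP reads. Scg3, a granin, held 2 reads with Ad-Ets-1 and 9 with Ad-GFP, and Ptprn2, a granule membrane protein, held 0 with Ad-Ets-1 and 6 with Ad-GFP, with no input reads in either.

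Insulin signalling and FoxO genes had 4 of 14, and 10.3% of their regions were members. Irs1 was described above. The PI3 kinase subunit genes lay on the same side, Pik3r1 with 8 reads with Ad-Ets-1, 0 with Ad-GFP and 1 in the input and Pik3ca with 5 with Ad-Ets-1 and 0 in the other 2 libraries. Insr, the insulin receptor gene, held 2 reads with Ad-Ets-1, 6 with Ad-GFP and 0 in the input. At Irs1 alone among the members of these β-cell and insulin lists did the interval leave out 1. ETS family genes had 2 of 15, Ets1 and Fli1, with 15.2% of regions. Fli1, an ETS factor of blood and endothelium, held 8 reads with Ad-Ets-1 in its 3′ UTR region and 0 in the other 2 libraries.

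The stress lists and the lists of other cell types each had 0 to 2 member genes, so each of their shares rests on at most 2 regions. The unfolded protein response list had 1 member gene of 11 (5% of regions), the stress sensor Atf6, with 2 reads with Ad-Ets-1, 6 with Ad-GFP and 0 in the input. The antioxidant list had 1 of 3 (16.7% of regions), the peroxiredoxin Prdx1, with 0 reads with Ad-Ets-1, 5 with Ad-GFP and 0 in the input. Markers of other cell types had members too, few in number and all of them with more Ad-GFP reads. Among all members 47.1% had more scaled reads with Ad-Ets-1, and whether the marker lists differ from that was not tested. Acinar and duct markers had 1 of 4 (22.2% of regions): Cftr, a chloride channel of duct cells, had a region with 2 reads with Ad-Ets-1, 10 with Ad-GFP and 2 in the input and another with 0 with Ad-Ets-1, 7 with Ad-GFP and 0 in the input. Liver and muscle genes had 1 of 6 (1.52% of regions), Neb, with 0 reads with Ad-Ets-1 and 6 with Ad-GFP, and stromal and immune markers 2 of 9 (7.14% of regions). These were Col1a2 of fibroblasts and Adgre1 of macrophages, each with 2 reads with Ad-Ets-1 and 6 with Ad-GFP. The other islet hormone list had 0 of 2.

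Chromatin regulators had 5 of 17 (11.6% of regions), on both sides. Besides Dnmt3a and Tet2, the acetyltransferase gene Ep300 held 7 reads with Ad-Ets-1 and 0 with Ad-GFP, while the demethylase gene Kdm6a and the Polycomb gene Eed each held 0 reads with Ad-Ets-1 and 6 with Ad-GFP; all 3 had no input reads. Genes known for long coding sequences or exons had 7 of 23 (4.79% of regions), among them Brca1 and Neb. Genes with collapsed copies in the reference had 2 of 9 (13.3% of regions), of which Pisd-ps1 held 4 reads with Ad-Ets-1, 8 with Ad-GFP and 3 in the input.

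Of the lists, the large gene families had the most member genes. Olfactory receptor genes had 19 of 438, 9 of them with more scaled reads with Ad-Ets-1. Olfr129 led with 11 reads with Ad-Ets-1, 1 with Ad-GFP and 0 in the input, a ratio of 10.1 with an interval of 0.667 to 252.8 that spans 1, followed by Olfr312 with 10 with Ad-Ets-1 and 0 in the other 2 libraries. Vomeronasal receptor genes had 9 of 179, 2 of them with more scaled reads with Ad-Ets-1, led by Vmn2r79 with 1 read with Ad-Ets-1, 11 with Ad-GFP and 0 in the input. Zinc finger genes had 16 of 188, of which 8 had more with Ad-Ets-1, and none held more than 6 reads in either precipitated library. By regions, 3.00% of the olfactory, 2.20% of the vomeronasal and 4.88% of the zinc finger exon and 3′ UTR regions were members, against 4.62% of all such regions.

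The smaller families had 1 to 3 members each. Mitochondrial ribosomal protein genes had 3 of 20 (10.3% of regions): Mrpl20 with 10 reads with Ad-Ets-1 and 0 with Ad-GFP, Mrpl15 with 0 with Ad-Ets-1 and 10 with Ad-GFP, and Mrps5 with 0 with Ad-Ets-1, 8 with Ad-GFP and 2 in the input. Protocadherins had 2 of 18 (5.41% of regions), Pcdh15 with 8 reads with Ad-Ets-1 and 0 with Ad-GFP and Pcdh17 with 0 with Ad-Ets-1 and 6 with Ad-GFP. Histone genes had 1 of 5 (11.1% of regions), Hist1h1d with 8 reads with Ad-Ets-1 and 4 with Ad-GFP. Cytosolic ribosomal protein genes had 1 of 17 (3.12% of regions), keratins 1 of 20 (3.70%) and Hox genes 1 of 6 (12.5%), which was Hoxd13.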

How the data were processed

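The authors deposited a comparison table and 2 annotated peak lists. Per the file headers the table gives read counts per region and library, and RPM values; the authors computed the RPM from the count plus 1, so that read totals could be recovered from the 2 columns. The deposited peak lists give, per the file headers, a fold over local background and −log10 q-values. Build mm10, BWA 0.7.12, MACS2 2.1.0, Trimmomatic and FastQC were used per the submitters' processing notes; how duplicates were handled and whether the input served in peak calling is not given in the sources used here. 

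Counts were scaled to the recovered totals. A ratio against 0 reads used a floor of 3 reads, no ratio was computed where both libraries held 3 or fewer, and folds were counted with every count raised to 3. Even counts made up 68.8% of nonzero member counts with Ad-Ets-1, 70.2% with Ad-GFP and 36.6% in the input. Intervals were computed on fragments of 2 reads, rounded up, in all 3 libraries, although the input shows no excess of even counts. Shares have Clopper-Pearson intervals; all intervals are at the 95% level and cover counting error only, since amplified reads are not independent molecules. Regions called satellite share a 24-base word with the most-read region: 41 regions with 228817 reads with Ad-Ets-1, 204481 with Ad-GFP and 65225 in the input.

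The reference was GRCm38 with GENCODE M21; no region ran past a chromosome end. The host gene is that of the annotated transcript, or for 3′ UTRs the gene with the most overlapped 3′ UTR bases. Named members were the 10 with most reads with each virus, the 6 with most input reads, the 8 highest and 8 lowest ratios, members of the 23 gene lists, genes with 3 or more members, the 10 word-holding members with most reads and 4 regions beside the minimum; some are given by count and a few are not reported here. Sim1, Tnpo1, Gmpr2, Matn1, Gm13219, Cpd, Gm6185 and Atad5 are further examples, chosen after their values were seen. The members and lists were chosen with earlier results of these data known. Samples were grouped by title. The interval script was tested on simulated data. The tools were scipy 1.17.1, pandas 2.3.3, pysam 0.24.0, numba 0.67.0, numpy 2.4.6 and matplotlib 3.10.9 under Python 3.11.15.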

Additional observations from a re-analysis of the deposited data

How the results depend on the processing

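No paired analysis was possible because the study has 1 library per group. The members numbered 3522 at a minimum of 4 reads, 208 at 8 and 77 at 10, and 473 or 527 where Ad-Ets-1 or Ad-GFP alone had to reach 5. Members at least 2-fold higher with Ad-Ets-1 numbered 410 with 1 read added to each count, 343 without scaling, 27 at a minimum of 10 reads, 23 at a 3-fold threshold and 6 where the interval had to exclude 1. Those at least 2-fold lower numbered 34, 36 and 24 under the last 3 of these and 119 at a minimum of 7 reads, which was added after seeing the data, as was the 2 bp tolerance for region edges. Members above the input numbered 895 with Ad-Ets-1 and 935 with Ad-GFP with 1 read added, and 47 and 54 at 10 reads. CCGGAAGT alone was in 3 members, and either word lay within the central 200 bp of 18. Any exon base was held by all 975. Both peak lists overlapped 58 members with 50% covered, and 8 if a deposited q of 0.05 or less was required. The cause of each shift was not tested beyond the smaller number of members or the stricter condition that the setting itself sets. The other 22 recomputed values were within 1.5 times of those reported. The furthest from them were 488 members at least 2-fold lower with 1 read added, and 318 and 337 members at least 50% exonic when only protein-coding transcripts counted or every base had to be exonic, against 376 and 476 as reported. Among the nearest was the share with more reads with Ad-Ets-1, at 45.5% to 47.1%. Depth limits these comparisons: at a median of 4 and 5 reads a difference at most single members was not detectable.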

Other observations

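Non-coding hosts other than the long intergenic class were also present: 24 members lay in genes of the TEC class, whose existence awaits experiment, 23 in antisense genes and 12 in processed pseudogenes. A lincRNA exon, Gm20745 exon 3 (chromosome 9, 68019846 to 68020556), was the only non-coding host with 20 or more reads, with 28 reads with Ad-Ets-1, 24 with Ad-GFP and 4 in the input.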
